A study of Mus musculus with 2 samples.

Results

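The clustered histone genes examined here were all genes whose symbol begins with Hist1h, Hist2h, Hist3h or Hist4h and that had 20 or more unique molecular identifiers (UMIs, each 1 counted RNA molecule) summed over the 2 libraries of the study. Of 31053 genes in the files, 67 carried such a symbol and 62 of these passed the minimum, among 16438 genes that did so in all. They comprised 5 linker histone genes (H1) and the core histone genes of type H2A (16), H2B (16), H3 (12) and H4 (13). The 5 symbols below the minimum were Hist1h1t with 15 UMIs, Hist1h2bq and Hist2h2aa2 with 1 UMI each, and Hist1h2aa and Hist1h2ba with 0. The members nearest above it were Hist1h2ah with 68, Hist1h2ao with 106 and Hist1h4m with 125 UMIs.

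These genes encode the histones that package newly made DNA. Most are intron-poor, sit side by side in a few chromosomal clusters and are transcribed mainly in S phase, when DNA is replicated. Their transcripts are the main animal mRNAs that do not end in poly(A): the end is a short stem-loop, bound by the protein encoded by Slbp, and the RNA is degraded when replication stops. Some of the genes are also known to give polyadenylated transcripts, ended at a signal downstream of the stem-loop, in cells that do not divide. Libraries primed on poly(A), as here per the labels, read the polyadenylated part together with any transcript primed at an internal run of A, so the levels below are levels of those molecules and not of the whole histone mRNA pool.

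The series profiled subcutaneous tumours formed from MC38 cells, a mouse colon carcinoma line, by droplet single-cell RNA sequencing with a 3′ chemistry. It compared 1 library from UBD-overexpressing tumours with 1 library from control tumours, the gene Ubd encoding a ubiquitin-like protein. The labels name both samples subcutaneous xenograft and do not give the host strain, the age of the mice, the number of tumours pooled in a library, the vector or the time after inoculation. With 1 library per group there was no replicate check, so no p-value is given: intervals are exact 95% Poisson or binomial intervals and cover counting error only, and a difference between the libraries cannot be told apart from a difference between the groups.

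The UBD library held 14158 barcodes and 204267192 UMIs, and the control library 14890 barcodes and 173973178 UMIs. After a filter on low-quality cells and the removal of 562 and 530 predicted doublets, 13057 UBD cells with a median of 12186 UMIs and 13823 control cells with a median of 4334 UMIs were kept. The libraries shared 71 barcodes, of which 60 were kept in each. Ubd itself had 204 UMIs (1.07 CPM, the UMIs of a gene over those of all genes in the same cells, scaled to a fixed total) in the kept cells of the UBD library and 111 UMIs (0.674 CPM) in those of the control library. In the clusters marked by Cdkn2a it stood at 1.16 CPM in UBD cells and 0.359 CPM in control cells, while in the clusters marked by C1qa it stood at 0.405 CPM in UBD cells and 1.47 CPM in control cells.

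Cells were clustered without the histone genes and without cell cycle genes, and 3 classes were read from the clusters. The Cdkn2a clusters stand for tumour cells, Cdkn2a being a tumour suppressor gene whose RNA marked the tumour-like clusters here. They held 8057 UBD cells and 4826 control cells, with Cdkn2a between 1739 and 1931 CPM. Krt8 and Krt18 were among the leading genes of cluster 0 of this class, and Epcam was at 0 in cycling control cells, so the epithelial markers were uneven; the fibroblast list, led by Col3a1 and Col1a1, summed to between 1368 and 2396 CPM in these clusters. The C1qa clusters (C1qa encodes a complement subunit made by macrophages) held 2056 UBD cells and 2823 control cells, with all 10 macrophage markers present and a summed level between 18073 and 24938 CPM. The Cd3e cluster (Cd3e encodes a chain of the T cell receptor complex) held 588 UBD cells and 495 control cells, with all 11 T cell markers present.

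The same class was not the same set of clusters in the 2 libraries. In the UBD library, 35.1%, 23.9% and 22.8% of the Cdkn2a-class cells lay in clusters 0, 4 and 5, whereas in the control library 36.7% and 30.0% lay in clusters 7 and 8. Of the C1qa-class cells, 91.6% of the UBD cells were in cluster 3 and 91.9% of the control cells in cluster 1. Cluster 7 stood apart: its cells had 6.99% mitochondrial UMIs, and its histone sum of 3278 CPM was above that of each of the other 22 clusters. The comparisons of UBD with control cells in the Cdkn2a clusters, where cluster 7 weighed most, are given with and without it.

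A cell counted as cycling when it had at least 1 UMI of Top2a, a topoisomerase gene of dividing cells, or Pclaf, a PCNA-binding factor gene. By this rule 61.2% of UBD and 65.9% of control cells of the Cdkn2a clusters were cycling, as were 31.9% and 13.7% of those of the C1qa clusters and 28.1% and 22.6% of those of the Cd3e cluster. Cluster 17, led by the neutrophil genes S100a8 and S100a9 with mast cell genes such as Mcpt2 beside them, served as a background: there the share was 2 of 31 UBD cells (6.45%) and 9 of 220 control cells (4.09%), at median depths of 938 and 1272 UMIs. Shares were also taken with cells thinned to 1000 UMIs. Shallower cells were left out, 215 of 2823 control cells of the C1qa clusters among them. These shares were 19.7% and 20.9% in the Cdkn2a clusters, 14.3% and 5.18% in the C1qa clusters and 16.6% and 13.8% in the Cd3e cluster, for UBD and control cells in that order. The share of control neutrophil-marker cells was 4.37%. Many cycling cells rested on a single such UMI: 1193 of 4933 UBD and 677 of 3178 control cells in the Cdkn2a clusters, 263 of 655 and 252 of 388 in the C1qa clusters, and 73 of 165 and 56 of 112 in the Cd3e cluster. Cycling cells were also deeper than other cells in each class and library, with medians of 20530 against 12876 UMIs in UBD and 28728 against 11582 in control cells of the Cdkn2a clusters.

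The members gave 222716 of the UMIs of the UBD library (0.109%) and 274085 of those of the control library (0.158%). A few genes carried most of them. Hist1h2ap alone held 14.9% of the 496801 histone UMIs, the leading 6 members 66.5% and the leading 10 members 78.9%, while the 24 members under 1000 UMIs held 1.90% together. The leading members were Hist1h2ap (73968 UMIs), Hist1h2bc (67079), Hist1h2ae (57990), Hist1h1e (48761), Hist1h1c (45193) and Hist1h1b (37277). By type, H2A genes gave 36.0%, H1 genes 28.4%, H2B genes 18.8%, H4 genes 10.0% and H3 genes 6.71% of the UMIs.

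By the annotation (GENCODE, on the mouse build GRCm38), 50 members lie on chromosome 13 between 21715763 and 23764406, 9 on chromosome 3 between 96219865 and 96270132, 2 on chromosome 11 (Hist3h2ba and Hist3h2a, between 58948920 and 58956830) and 1, Hist4h4, on chromosome 6. All 62 are annotated as protein coding. Many are near copies of each other: in the last 400 bases of the transcript, where a 3′ library reads, 31 members shared over 50% of their 50-base stretches with another member and 22 shared none. All of these stretches of Hist1h2ap recur in Hist1h2ao, which had 106 UMIs against 73968 for Hist1h2ap, so the split between them is uncertain. Hist1h3e and Hist1h3f shared 86.0% and 87.2%, and Hist1h2ae 44.2%. Hist1h2bc, Hist1h1b, Hist1h1c, Hist1h1d, Hist1h2ac, Hist3h2a, Hist1h4i and Hist1h4d shared none. Hist1h2be is annotated at 23583670 to 23621124 and overlaps Hist1h1e (23620629 to 23622558) on the same strand.

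The stem-loop is shown here because it is the feature that ends the non-polyadenylated form. The histone stem-loop motif, a 16-base pattern that opens with GG, closes with CC and has a T-rich loop, was searched on the transcript strand and was present in the longest coding transcript of 43 of the 62 members, in 8 versions. The version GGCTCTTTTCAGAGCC stood in 24 members of types H1, H2A, H2B and H3, and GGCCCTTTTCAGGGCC in 7 members, all H4. In the sites below, from the annotated transcripts (DNA letters, 5′ to 3′), the capitals mark the motif. The first 7 are from genes that were at least 1.5-fold higher in cycling cells of each class and library, as given further on. The last 3, from Hist1h1c, Hist3h2a and Hist1h2ac, are from genes that were not, and their core is that of Hist1h2ap.
Hist1h2ap: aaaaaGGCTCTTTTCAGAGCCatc
Hist1h2ae: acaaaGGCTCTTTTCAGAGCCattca
Hist2h2ac: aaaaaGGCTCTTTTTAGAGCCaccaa
Hist1h3c: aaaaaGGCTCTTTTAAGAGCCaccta
Hist1h4i: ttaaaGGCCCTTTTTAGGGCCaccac
Hist1h4d: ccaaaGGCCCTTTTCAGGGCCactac
Hist1h1e: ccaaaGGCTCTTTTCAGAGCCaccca
Hist1h1c: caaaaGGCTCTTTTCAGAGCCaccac
Hist3h2a: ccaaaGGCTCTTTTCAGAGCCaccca
Hist1h2ac: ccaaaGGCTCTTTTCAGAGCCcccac
The annotated transcript of Hist1h2ap stops 3 bases after the core, that of Hist2h2ac 57, that of Hist1h3c 74 and that of Hist1h2ae 151. It goes on for 330 bases in Hist1h4i, 770 in Hist1h4d, 840 in Hist1h1c, 1153 in Hist1h1e, 1643 in Hist3h2a and 2010 in Hist1h2ac. In all, 18 annotated transcripts went on for 300 or more bases, of which 10 held the poly(A) signal AATAAA past the stem-loop. A further 21 ended within 100 bases, none with that signal, and 4 lay between. The motif was not in the annotated transcript of the other 19, Hist1h2bc and Hist1h1b among them. Some of these transcripts are short, with 393 bases in Hist1h2an, 381 in Hist2h2bb, 411 in Hist1h3i and 312 in Hist1h4k. Others are longer, such as that of Hist1h2bc with 1156 bases. Sequence past the annotated ends was not searched, so a stem-loop there would be missed and these genes cannot be said to lack it. The 18 long transcripts belonged to members that gave 35.7% of the histone UMIs, the 21 short ones to members that gave 26.2%, and those without the motif to members that gave 25.9%. The A-richest 20-base window of the transcript held between 7 and 18 A's over the members, with 15 or more in 7 of them, Hist1h2ap among these with 16.

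Promoters of 56 members were matched in the RefSeq table (GRCm38.p6; 250 bases before to 50 bases after the start). Read on both strands, TATAAA was present in 33 of 56 (58.9%), against 13.6% of all 32851 promoters of the same length. CCAAT was present in 47 of 56 (83.9%), against 37.4% of all. It stood in the promoter of each matched H1, H2A, H2B and H3 member and in 3 of 12 H4 members. The octamer ATTTGCAT was present in 11 of 56 (19.6%), against 1.74% of all, and these 11 were 6 of 15 H2A and 5 of 14 H2B members. An H2A and an H2B gene often face away from each other across a short gap: the annotation holds 11 divergent member pairs, of which 10 join an H2A and an H2B gene with 175 to 301 bases between the starts and 1 joins Hist1h2bh and Hist1h3f across 659 bases. Promoter windows of such partners can overlap, as do those of Hist1h2ad (from 23574131 to 23574430) and Hist1h2bf (from 23574158 to 23574457). As both strands were read, a single site can count for both genes of a pair. The motif counts above are therefore not counts over 56 separate promoters. The promoters of a pair that was higher in cycling cells (Hist1h2ae with Hist1h2bg, gap 175 bases) and of the pair that was not (Hist1h2ac with Hist1h2bc, gap 250 bases) are printed below, each on the strand of the H2A gene, with matches to the 3 motifs in capitals. The window of Hist1h2ae is chr13:23571171-23571470 and that of Hist1h2ac is chr13:23683910-23684209, both on the minus strand of GRCm38.p6, and no matches overlap in these 2 windows.
Hist1h2ae: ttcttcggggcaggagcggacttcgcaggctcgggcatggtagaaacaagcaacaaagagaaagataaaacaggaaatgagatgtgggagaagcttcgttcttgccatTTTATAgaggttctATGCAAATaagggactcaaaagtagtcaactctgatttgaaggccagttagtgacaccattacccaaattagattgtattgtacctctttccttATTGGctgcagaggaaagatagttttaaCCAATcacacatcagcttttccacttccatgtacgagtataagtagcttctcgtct
Hist1h2ac: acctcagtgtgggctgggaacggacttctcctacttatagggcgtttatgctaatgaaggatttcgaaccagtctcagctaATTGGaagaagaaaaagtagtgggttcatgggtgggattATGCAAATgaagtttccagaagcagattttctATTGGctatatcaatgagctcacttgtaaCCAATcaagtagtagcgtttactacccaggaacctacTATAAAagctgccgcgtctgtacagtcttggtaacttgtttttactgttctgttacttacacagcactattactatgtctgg
Both windows hold a TATAAA match, an octamer and more than a single CCAAT match, so the presence of these letters was alike in both windows. The strand and place of the TATAAA match were not alike. In the Hist1h2ae window it lies on the opposite strand and farther from the start, and in the Hist1h2ac window on the strand of the gene.

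Summed over the members, histone RNA was higher in cycling than in other cells in each class and library. In the Cdkn2a clusters the sum was 1243 CPM in cycling and 674 CPM in other UBD cells, a ratio of 1.84 (1.82 to 1.87). In control cells of these clusters it was 1983 and 731 CPM, a ratio of 2.71 (2.67 to 2.75). The C1qa clusters had 1753 and 495 CPM in UBD cells (ratio 3.54, 3.403 to 3.68) and 1629 and 461 CPM in control cells (ratio 3.53, 3.38 to 3.70). In each library the highest level of cycling cells stood in the Cd3e cluster. It had 3662 and 937 CPM in UBD cells (ratio 3.91, 3.64 to 4.20) and 3983 and 652 CPM in control cells (ratio 6.11, 5.63 to 6.63). The 652 CPM of its other control cells lay below the 731 CPM of those of the Cdkn2a clusters. In the Cdkn2a clusters the sum was higher in cycling cells within 14 of 14 combinations of cluster and library, by 1.16- to 4.20-fold. With predicted doublets kept, the ratio of Cd3e UBD cells was 2.48 in place of 3.91; with equal weight per cell that of C1qa control cells was 2.02 in place of 3.53, and with cycling defined from 2 UMIs it was 5.53.

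RNA quality measures differed beside these ratios. Mitochondrial UMIs were 3.38% and 3.67% in cycling and other UBD cells of the Cdkn2a clusters and 3.57% and 4.03% in control cells. Gm42418, a transcript overlapping ribosomal RNA sequence, was at 861 and 1467 CPM in cycling and other UBD cells of these clusters and at 2251 and 5095 CPM in control cells. In the Cd3e cluster the macrophage list summed to 3607 CPM in cycling and 2382 CPM in other UBD cells (10 of 10 genes with a UMI in both), against 173 CPM (9 of 10, Adgre1 at 0) and 426 CPM (10 of 10) in control cells. The part of these measures in the histone ratios was not tested.

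The type makeup of the histone RNA differed with cell state. In UBD cells of the Cdkn2a clusters, H2A genes gave 35.5% of the histone UMIs in cycling cells and 12.0% in other cells, while H2B genes gave 15.8% and 46.2%. Control cells of these clusters showed the same order, with H2A at 43.1% in cycling and 17.3% in other cells and H2B at 14.3% and 44.2%. In UBD cells of the C1qa clusters H2A stood at 37.7% in cycling and 18.2% in other cells and H2B at 13.9% and 32.3%. In control cells of these clusters H2A stayed above H2B in both states. There H2A stood at 48.3% in cycling and 34.2% in other cells and H2B at 11.2% and 21.2%. In the Cd3e cluster the largest share in non-cycling cells was that of H1, at 53.2% in UBD and 42.5% in control cells, against 32.6% and 28.7% in cycling cells. H3 genes never gave more than 9.23% of the histone UMIs.

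**Figure D1:**
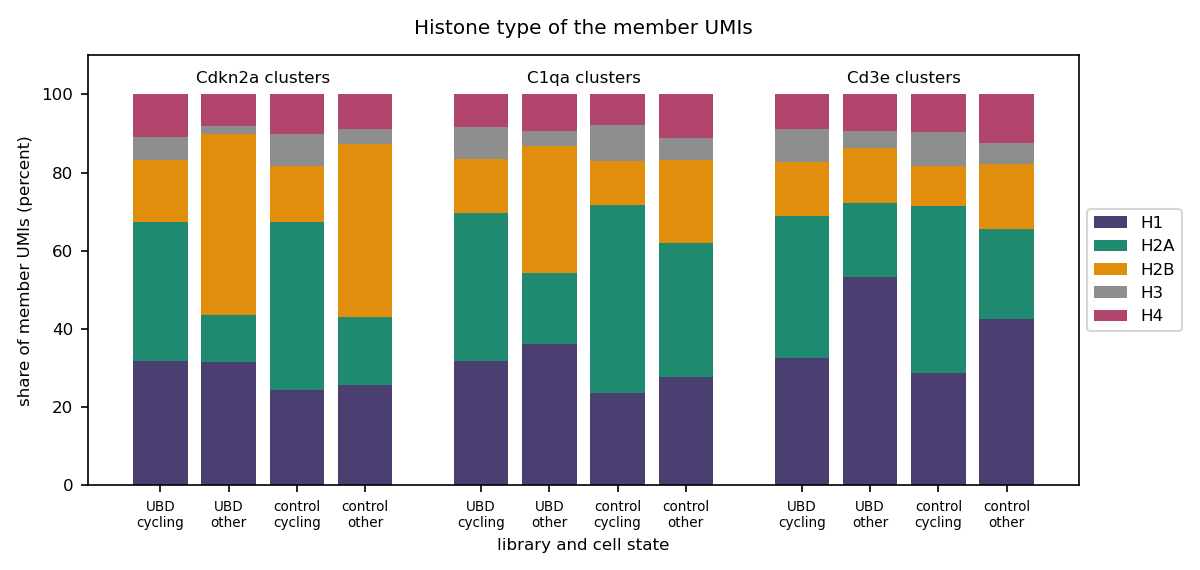
Share of the histone UMIs (percent, vertical axis) given by the genes of each histone type, for cycling and other cells of the UBD and control libraries in the 3 classes. H2B fills 46.2% of the bar of other UBD cells of the Cdkn2a clusters and 15.8% of the bar of cycling UBD cells there.

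As levels, H2A, H3, H1 and H4 genes were each higher in cycling cells in 14 of 14 cluster and library combinations of the Cdkn2a class, whereas the H2B sum was lower in 11 of 14. Over the Cdkn2a clusters, H2A genes summed to 442 CPM in cycling and 81.2 CPM in other UBD cells (5.44-fold) and to 854 and 127 CPM in control cells (6.74-fold). H3 genes summed to 73.9 and 13.7 CPM in UBD cells (5.397-fold) and to 162 and 28.5 CPM in control cells (5.67-fold). The H2B sum was 197 CPM in cycling and 311 CPM in other UBD cells, a ratio of 0.633, and 283 and 323 CPM in control cells, a ratio of 0.874. Hist1h2bc was the exception among the H2B genes: the other 14 of the 15 members compared in each library were at least 1.5-fold higher in cycling cells. In the C1qa clusters the H2B ratio was 1.52 in UBD and 1.87 in control cells, and in the Cd3e cluster it was 3.81 and 3.82.

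Most single members were higher in cycling cells. A member was compared where its UMIs in the 2 sides together reached 20, a minimum that the higher side alone can meet. In the Cdkn2a clusters, 50 of 60 members compared in UBD cells were at least 1.5-fold higher and 4 (Hist1h2bc, Hist1h2ao, Hist1h1c and Hist3h2a) at least 1.5-fold lower, where 9.2% and 9.06% of the 13950 genes compared were. In control cells 53 of 61 were higher and 1 (Hist1h2bc) lower, against 8.43% and 11.4% of 14158 genes. In the C1qa clusters 37 of 42 were higher and 0 lower in UBD cells (16% and 7.48% of 10480 genes), and 30 of 38 were higher and 1 (Hist3h2a) lower in control cells (12.9% and 7.86% of 10402 genes). In the Cd3e cluster 27 of 30 were higher and 0 lower in UBD cells (16.4% and 12.3% of 6974 genes), and 26 of 29 were higher and 1 (again Hist3h2a) lower in control cells (17% and 17% of 6646 genes). The median member log2 ratio lay between 2.15 and 2.94 over the 6 comparisons, and the median over all genes between -0.05 and 0.09. With cells thinned to 2000 UMIs, under which fewer members reach the minimum, the counts at least 1.5-fold higher were 31, 43, 16, 16, 15 and 12 in the same order. Here and in each later thinning to 2000 UMIs, shallower cells were left out and the rest were called cycling anew from the thinned counts. Left out were 114 UBD and 166 control cells of the Cdkn2a clusters, 230 and 847 of the C1qa clusters and 206 and 145 of the Cd3e cluster. In the Cdkn2a clusters 30.5% of the UBD and 31.7% of the control cells kept were then cycling, in place of 61.2% and 65.9%. Of 26 members compared in all 6, 20 were at least 1.5-fold higher in each, and 2, Hist1h1c and Hist3h2a, in none.

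**Figure D2:**
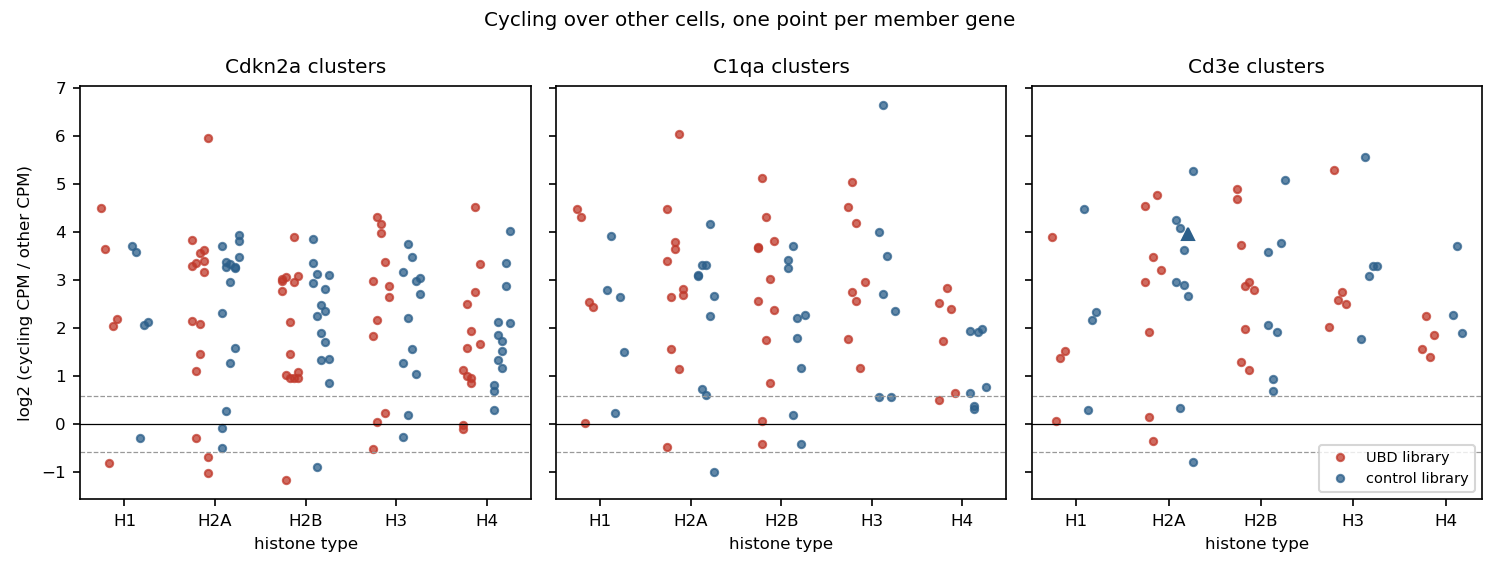
Log2 ratio of cycling to other CPM (vertical axis) for each member compared, by histone type (horizontal axis), class and library. Dashed lines mark 1.5-fold either way, and the triangle is a gene with no UMI in other cells, set at 3 counts there. Most points lie above the upper dashed line, and the few below 0 include Hist1h2bc at -1.18 in UBD and -0.89 in control cells of the Cdkn2a clusters.

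Among H2A genes, Hist1h2ap, which encodes a standard replication-dependent H2A, had the most UMIs. It stood at 193 CPM in cycling and 19.7 CPM in other UBD cells of the Cdkn2a clusters, and at 358 and 34.9 CPM in control cells. For the C1qa clusters the levels were 292 and 21.2 CPM in UBD cells and 349 and 35.6 CPM in control cells. Cells of the Cd3e cluster had 687 and 74.4 CPM in UBD cells and 893 and 52.9 CPM in control cells. Each cycling level of Hist1h2ap was thus above each level in other cells, in all 3 classes. Hist1h2ae, a further H2A gene, stood at 143 and 16.01 CPM in cycling and other UBD cells and at 292 and 30.5 CPM in control cells of the Cdkn2a clusters, log2 ratios of 3.16 and 3.26. Hist2h2ac, from the chromosome 3 cluster, stood at 38.2 and 3.62 CPM in UBD and 68.8 and 6.24 CPM in control cells there. Hist1h2af had among the largest ratios, on few molecules: 322 UMIs in cycling and 2 in other UBD cells of the Cdkn2a clusters, and 542 and 9 in control cells. There were 30 UMIs of it in cycling and 0 in other control cells of the Cd3e cluster. With the 0 set at 3 counts, which would be 2.69 CPM, the ratio was 15.4-fold. The counting error of the 30 UMIs is not in that value.

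Among H3 genes Hist1h3c led. In the Cdkn2a clusters it stood at 23.4 CPM in cycling and 1.31 CPM in other UBD cells (log2 ratio 4.17) and at 51.9 and 4.70 CPM in control cells (3.47). Cells of the Cd3e cluster gave 105 and 2.69 CPM in UBD cells and at 126 and 2.69 CPM in control cells. The other leading H3 genes were also higher in cycling cells of the Cdkn2a clusters, Hist1h3e with log2 ratios of 2.64 in UBD and 2.69 in control cells, Hist1h3f with 2.97 and 3.17 and Hist1h3i with 3.38 and 2.98. Hist1h3b had the largest ratio of the C1qa control cells, at 11.8 CPM in cycling and 0.118 CPM in other cells, the second level resting on a single UMI. The H3 genes of chromosome 3 Hist2h3c1 and Hist2h3c2, with log2 ratios of -0.51 and 0.04 in UBD cells of the Cdkn2a clusters, were not among those higher; they were singled out after their values were seen.

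Of the H4 genes, which encode one and the same protein in most copies, Hist1h4i and Hist1h4d had the most UMIs. Hist1h4d stood at 49.2 CPM in cycling and 7.33 CPM in other UBD cells of the Cdkn2a clusters and at 67.5 and 9.25 CPM in control cells. Hist1h4i was less different, at 59.0 and 29.4 CPM in UBD and 85.4 and 34.0 CPM in control cells, log2 ratios of 1.00 and 1.33. Hist1h4h was at 11.4 and 12.2 CPM in cycling and other UBD cells of the Cdkn2a clusters, with no 1.5-fold difference, against 14.8 and 8.46 CPM in control cells. The levels of Hist1h4h in the C1qa clusters were 20.1 and 3.82 CPM in UBD cells and 13.4 and 3.42 CPM in control cells. Hist4h4, alone on chromosome 6, was at 2.27 and 1.26 CPM in UBD and 9.66 and 4.31 CPM in control cells of the Cdkn2a clusters.

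The linker histone genes, whose products bind DNA between nucleosomes, fell into different patterns. Hist1h1b stood at 126 CPM in cycling and 10.1 CPM in other UBD cells of the Cdkn2a clusters, at 193 and 9.76 CPM in UBD cells of the C1qa clusters and at 334 and 22.4 CPM in UBD cells of the Cd3e cluster. In control cells the same classes gave 151 and 12.7, 139 and 9.19, and 396 and 17.9 CPM. Hist1h1e was at 152 and 33.5 CPM in UBD and 181 and 41.4 CPM in control cells of the Cdkn2a clusters. Hist1h1b and Hist1h1e were therefore above their other-cell levels in every class and library, with log2 ratios of 3.58 to 4.46 and 1.49 to 2.43. Hist1h1a, with few molecules, stood at 6.21 and 0.275 CPM in UBD and 23.6 and 1.82 CPM in control cells of the Cdkn2a clusters. Hist1h1c was different: it was at 94.3 CPM in cycling and 165 CPM in other UBD cells there, and at 102.9 and 126 CPM in control cells. Its levels in the C1qa clusters were 130 and 128 CPM in UBD cells and 76.8 and 66.0 CPM in control cells, and in the Cd3e cluster at 285 and 274 CPM and 175 and 144 CPM. Its log2 ratio thus lay between -0.81 and 0.29, and it was lower in cycling cells in 12 of 14 cluster and library combinations of the Cdkn2a class. In control cells of the Cdkn2a clusters the value of -0.30 turned to 0.27 when cells were thinned to 2000 UMIs and called cycling anew.

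**Figure D3:**
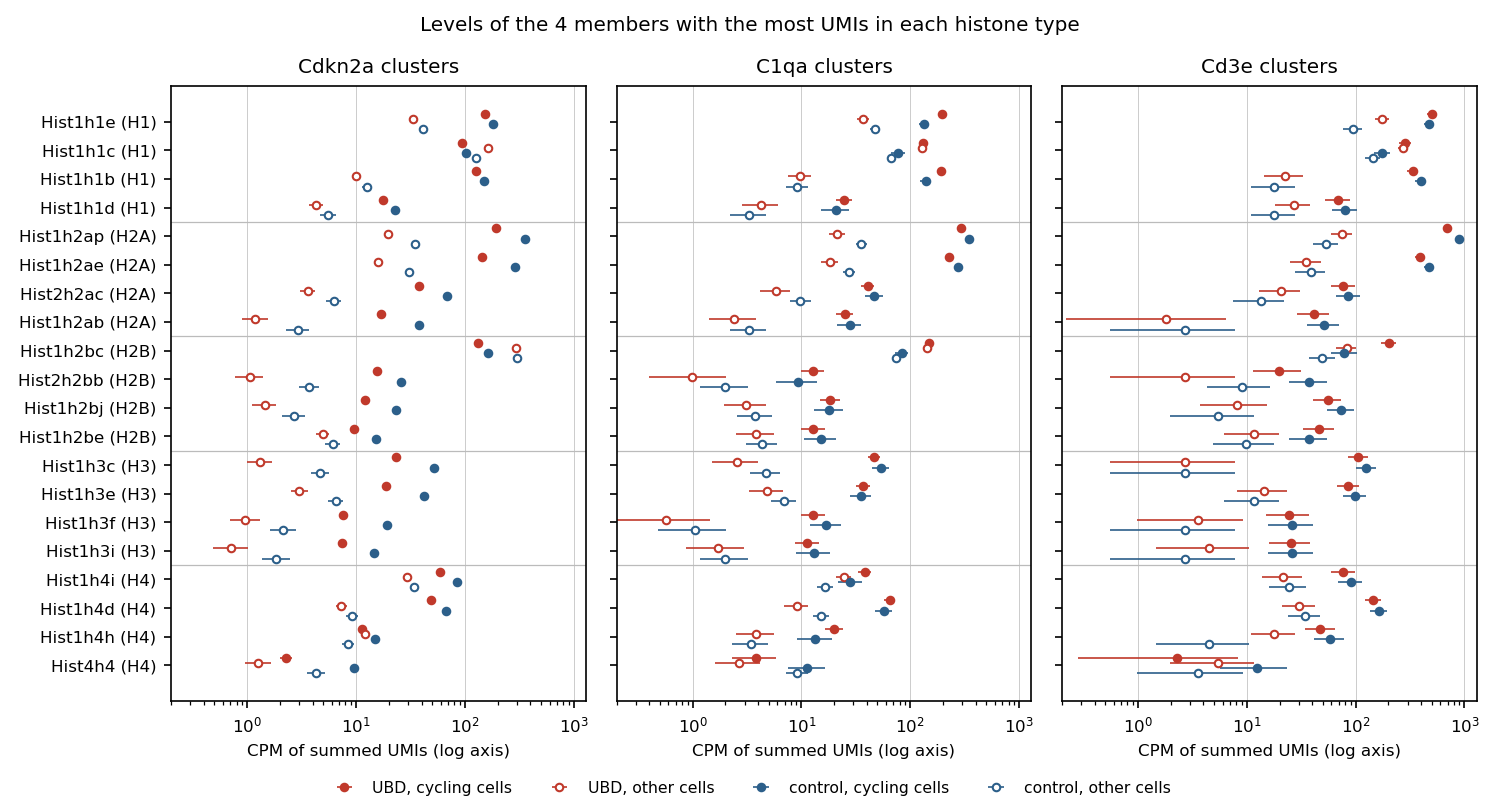
CPM of summed UMIs (logarithmic horizontal axis) of the 4 members with the most UMIs in each histone type, in cycling (filled) and other (open) cells of the UBD (red) and control (blue) libraries; bars are exact 95% Poisson intervals, some of which run past the left edge. The filled and open points of Hist1h1c, and those of Hist1h2bc in the Cdkn2a and C1qa clusters, lie close together or in the reverse order. In the Cd3e cluster the filled points of Hist1h2bc are higher, at 201 against 82.5 CPM in UBD and 78.7 against 49.3 CPM in control cells. The points of Hist1h2ap and Hist1h1b are about an order of magnitude apart.

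Hist1h2bc, an H2B gene on chromosome 13 (23684199 to 23692908, plus strand), had the most UMIs outside cycling cells in the Cdkn2a and C1qa clusters. In such cells of the Cd3e cluster it stood below Hist1h1c, at 82.5 against 274 CPM in UBD and 49.3 against 144 CPM in control cells. In the Cdkn2a clusters it stood at 132 CPM in cycling and 297 CPM in other UBD cells, and at 162 and 300 CPM in control cells. The log2 ratios were -1.18 and -0.89, and the gene was lower in cycling cells in 14 of 14 cluster and library combinations (0.350- to 0.895-fold). Cycling and other cells of the C1qa clusters were close, at 149 and 143 CPM in UBD cells and 83.6 and 73.5 CPM in control cells. The order in the Cd3e cluster was the reverse of that in the Cdkn2a clusters, with 201 and 82.5 CPM in UBD cells and 78.7 and 49.3 CPM in control cells. Keeping predicted doublets brought the value for UBD cells of that cluster to 0.13, against 1.28 without them.

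Hist3h2a, an H2A gene of the chromosome 11 cluster, was lower in cycling cells in all 6 comparisons. It stood at 10.8 and 17.3 CPM in cycling and other UBD cells of the Cdkn2a clusters and at 12.3 and 17.5 CPM in control cells. The C1qa clusters gave 22.2 and 31.0 CPM in UBD cells and 31.9 and 63.5 CPM in control cells, and the Cd3e cluster 19.6 and 25.1 CPM and 12.4 and 21.5 CPM. The neighbouring H2B gene Hist3h2ba had its highest levels in the Cd3e cluster, at 31.1 CPM in cycling and 14.3 CPM in other UBD cells and 29.0 and 15.3 CPM in control cells there, against at most 4.48 CPM in the C1qa clusters and at most 10 UMIs in a state and library of the Cdkn2a clusters; it was singled out after its values were seen. Hist1h2ac, the divergent partner of Hist1h2bc, was at 13.7 and 16.7 CPM in cycling and other UBD cells and 28.3 and 23.4 CPM in control cells of the Cdkn2a clusters. Of the 11 divergent pairs, both genes were at least 1.5-fold higher in cycling cells of both libraries of the Cdkn2a clusters in 9, and neither was in either library in 1, that of Hist1h2ac and Hist1h2bc.

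Members with annotated transcripts that run far past the stem-loop had the smaller median ratio, with wide overlap. Among the 18 members with 300 or more such bases, the median log2 ratio of cycling to other cells in the Cdkn2a clusters was 0.98 in UBD and 1.42 in control cells, with 12 and 13 at least 1.5-fold higher. Among the 21 members that end within 100 bases, the median was 2.14 in UBD and 2.47 in control cells, with 19 and 20 at least 1.5-fold higher. Across 42 members with a value, Spearman's rho between the number of bases past the stem-loop and the log2 ratio was -0.37 in UBD and -0.40 in control cells. This is a description across genes that share libraries and, for some, sequence. The long members ranged from -0.81 to 2.97 in UBD and from -0.51 to 3.85 in control cells, and the short ones from -1.01 to 4.30 and from -0.085 to 4.02. Among the long members Hist1h3f, with 365 bases, had the largest ratio in UBD cells (2.97) and Hist1h2bh, with 1214 bases, that in control cells (3.85). Hist1h2ao, with 31 bases, had the smallest ratio of the short members.

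Within the cycling cells, the histone sum varied with the balance of a list of 24 genes (S list) and a list of 20 genes (G2/M list). The lists describe ranges of cells. No phase was measured otherwise, and the S list also holds genes such as Ccne1, Cdc6 and E2f1, so a high S-list share does not mean S phase. Cells were binned by the S-list share of the UMIs of both lists, for cells with 5 or more such UMIs. In UBD cells of the Cdkn2a clusters the sum was 1266 CPM at an S-list share of 0 to 25%, 1687 CPM at 25 to 50%, 1559 CPM at 50 to 75% and 562 CPM at 75 to 100%. Control cells of these clusters gave 1870, 2625, 2455.8 and 773 CPM over the same bins. The C1qa clusters gave 2242, 3112, 2502 and 621 CPM in UBD cells and 2718, 2773, 3183 and 778 CPM in control cells. In the Cdkn2a and C1qa clusters of both libraries the lowest level stood in the bin with the highest S-list share and the highest level in a middle bin. UBD cells of the Cd3e cluster gave 5487, 4593, 4489 and 1501 CPM, with 20 to 34 cells a bin, and Cd3e control cells gave 4775, 5450, 6913 and 3268 CPM, with 12 to 19 cells a bin, too few to read an order from.

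**Figure D4:**
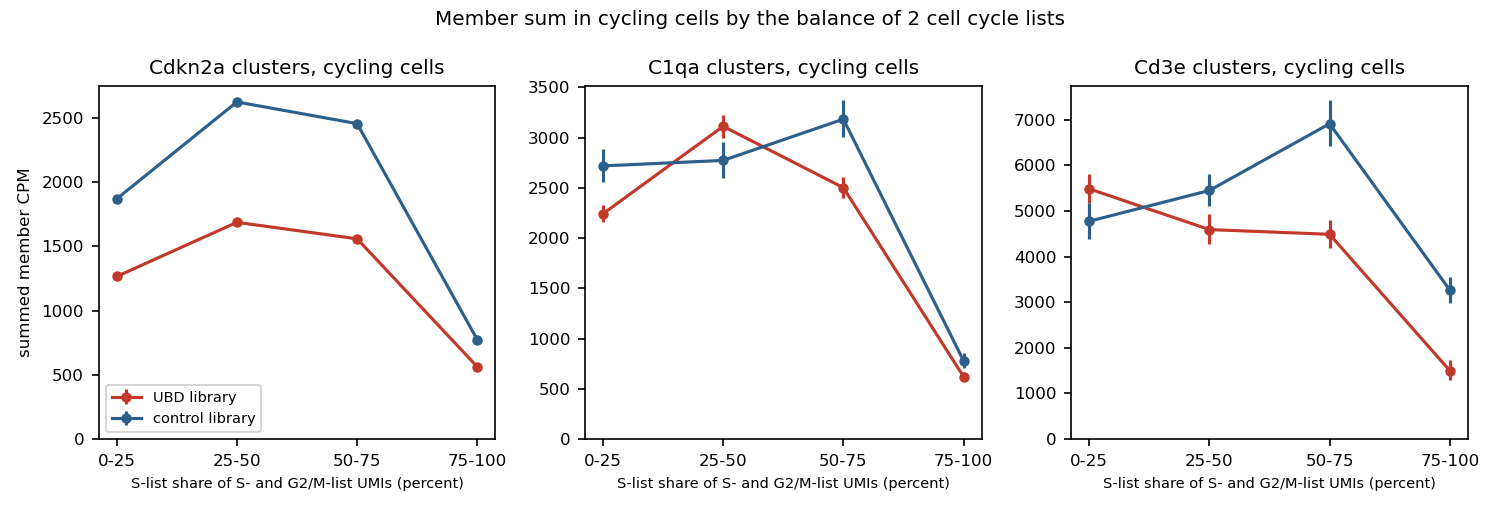
Summed histone CPM (vertical axis) of cycling cells binned by the S-list share of S- and G2/M-list UMIs (percent, horizontal axis), for the UBD (red) and control (blue) libraries in 3 classes; bars are exact 95% Poisson intervals. In the Cdkn2a clusters the last bin stands at 562 CPM in UBD and 773 CPM in control cells, below the other 3 bins.

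The types differed in how far they were lower in the last bin. In UBD cells of the Cdkn2a clusters, H2A genes stood at 427, 644, 628 and 127 CPM over the 4 bins and H3 genes at 87.5, 107, 93.5 and 19.6 CPM. H2B genes stood at 199, 203, 196 and 170 CPM, and Hist1h2bc at 127, 105, 114 and 152 CPM. Hist1h1c stood at 91.4, 90.5, 93.5 and 90.7 CPM. The near-even levels of H2B, Hist1h2bc and Hist1h1c were not seen in the other groups with a lower last bin. H2B genes stood at 333, 323, 282 and 182 CPM in control cells of the Cdkn2a clusters, at 397, 312, 248 and 87.8 CPM in UBD and 356, 219, 237 and 93.3 CPM in control cells of the C1qa clusters, and at 950, 567, 407 and 230 CPM in UBD cells of the Cd3e cluster. Hist1h1c stood at 125, 118, 96.0 and 67.5 CPM in control cells of the Cdkn2a clusters and at 200.1, 154, 117 and 45.1 CPM in UBD cells of the C1qa clusters. Hist1h2bc stood at 221, 148, 134 and 147 CPM and at 283, 122, 107 and 59.1 CPM in these same groups. Cells with more S-list than G2/M-list UMIs, set against the rest of the cycling cells, had 37 of 59 members at least 1.5-fold lower and 0 higher in UBD cells of the Cdkn2a clusters, against 4.21% and 5.16% of 13437 genes. The counts were 15 lower and 0 higher of 61 in control cells of these clusters (3.48% and 6.28% of 13735 genes), 30 and 1 of 40 in UBD cells of the C1qa clusters (7.7% and 8.25% of 9157 genes) and 16 and 0 of 30 in control cells (10.4% and 7.58% of 7721 genes). The Cd3e cluster gave 19 and 0 of 26 in UBD cells (12% and 12.4% of 4598 genes) and 6 and 2 of 25 in control cells (11.5% and 11.5% of 4088 genes).

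UBD and control cells were then compared within class and state, where the difference in clusters named above applies. In cycling cells of the Cdkn2a clusters the histone sum was lower in the UBD library, at 1243 CPM in UBD and 1983 CPM in control cells (ratio 0.627, 0.623 to 0.631). All 61 members compared had log2 ratios below 0; 49 were at least 1.5-fold lower and 0 higher, where 19.2% and 9.24% of 14734 genes were. Cluster 7, which held 29 UBD and 1042 control cycling cells, weighed on this: without it the ratio was 0.814, and 19 of 61 members were at least 1.5-fold lower and 1 higher (14.1% and 10.7% of 14430 genes). On the log2 scale the pooled value of -0.67 became -1.03 after thinning cells to 2000 UMIs and -1.06 when each cell had equal weight. By cluster, the sum of cycling cells was lower in UBD than in control cells in 6 of 7 clusters, and higher in cluster 5, at 1350 CPM in UBD and 865 CPM in 48 control cells.

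In other cells of the Cdkn2a clusters the libraries lay closer, at 674 CPM in UBD and 731 CPM in control cells (ratio 0.922, 0.905 to 0.939). There 28 of 50 members were at least 1.5-fold lower and 1 higher, against 20.3% and 8.8% of 13280 genes. Without cluster 7 the ratio was 1.11, with 7 of 45 members lower and 8 higher (12.9% and 11.4% of 12949 genes), so the direction of the sum turned. By cluster the sum of other cells was higher in UBD than in control cells in 6 of 7, with cluster 5 the exception, at 703 CPM in UBD and 748 CPM in control cells. The intervals of the libraries overlapped in cluster 5, in cluster 7 (35 UBD cells) and in cluster 9, at 755 CPM in UBD and 751 CPM in control cells. Cluster 4 rested on 23 control cells with a median of 1127 UMIs. With cells thinned to 2000 UMIs and called cycling anew, the pooled value of -0.12 (log2) became -0.96. Many cells counted as cycling before lay among the other cells there, so this was not a change of depth alone. Equal weight per cell gave -0.50.

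**Figure D5:**
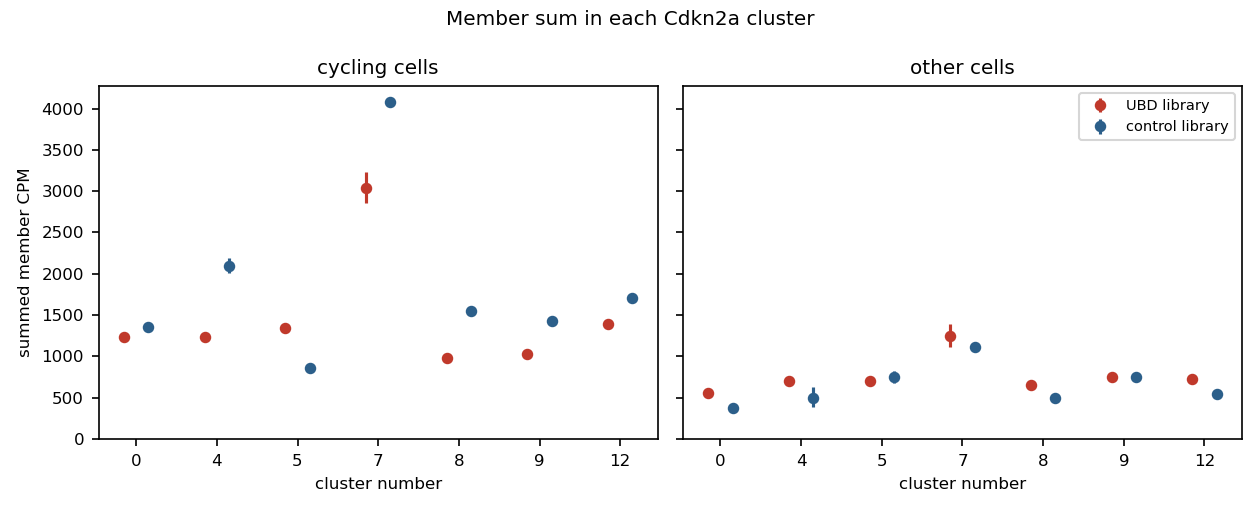
Summed histone CPM (vertical axis) in each cluster of the Cdkn2a class (cluster number, horizontal axis), for cycling cells (left) and other cells (right) of the UBD (red) and control (blue) libraries, with exact 95% Poisson intervals. Cluster 7 stands highest in each panel, with 3040 CPM in UBD and 4078 CPM in control cycling cells.

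The difference in cycling cells of the Cdkn2a clusters was uneven over the types. The log2 ratio of UBD to control was -1.13 for H3, -0.95 for H2A, -0.59 for H4, -0.52 for H2B and -0.28 for H1 genes. Without cluster 7 the levels were 73.3 CPM in UBD and 106 CPM in control cells for H3, 440 and 650 CPM for H2A, 134 and 163 CPM for H4 and 197 and 238 CPM for H2B, all still lower in UBD cells. For H1 the direction turned, with 394 CPM in UBD and 364 CPM in control cells. Hist4h4 had the smallest ratio, at 2.27 CPM in UBD and 9.66 CPM in control cells (log2 ratio -2.09), and Hist1h1a followed, at 6.21 CPM in UBD and 23.6 CPM in control cells (-1.93). Without cluster 7 Hist4h4 was at 2.25 CPM in UBD and 3.72 CPM in control cells and Hist1h1a at 6.21 and 16.7 CPM. Hist1h1c was close to even, at 94.3 CPM in UBD and 102.9 CPM in control cells, and without cluster 7 it was higher in UBD cells, at 93.8 and 79.7 CPM. In other cells of these clusters Hist1h1a was at 0.275 CPM in UBD and 1.82 CPM in control cells, Hist1h3a at 0.710 and 2.61 CPM and Hist1h3c at 1.31 and 4.70 CPM, again lower in UBD cells. Without cluster 7 the levels in other cells lay closer, at 0.253 CPM in UBD and 0.899 CPM in control cells for Hist1h1a, 0.714 and 1.22 CPM for Hist1h3a and 1.22 and 2.06 CPM for Hist1h3c. Mitochondrial UMIs in control cells of cluster 7 were 6.55% in cycling and 8.28% in other cells, and Gm42418 stood there at 5560 and 11942 CPM. The part of these in the difference was not tested.

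In the C1qa clusters the histone sums differed less, with 1753 CPM in UBD and 1629 CPM in control cycling cells (ratio 1.08, 1.04 to 1.12) and 495 and 461 CPM in other cells (ratio 1.08, 1.03 to 1.13). Of the members compared, 6 of 43 were at least 1.5-fold higher and 2 lower in cycling cells (11.7% and 19.7% of 9871 genes), and 2 of 29 higher and 12 lower in other cells (11.9% and 24.1% of 10881 genes). The sign of the cycling sum turned under 3 of the settings tried, with log2 ratios of -0.21 to -0.038. Within cluster 3, cycling cells stood at 1794 CPM in UBD and 2431 CPM in 55 control cells. Hist1h1c and Hist1h2bc were higher in UBD cells: Hist1h1c was at 130 CPM in UBD and 76.8 CPM in control cycling cells and at 128 and 66.0 CPM in other cells, and Hist1h2bc at 149 and 83.6 CPM and at 143 and 73.5 CPM. Hist1h4c was also higher in cycling cells, at 9.29 CPM in UBD and 3.36 CPM in control cells. Hist4h4 was lower, at 3.79 and 11.3 CPM in UBD and control cycling cells and at 2.69 and 9.19 CPM in other cells, as were Hist3h2a (31.0 and 63.5 CPM) and Hist1h2ac (2.69 and 5.30 CPM) in other cells. The monocyte list summed to 159 CPM in UBD and 1039 CPM in control cycling cells of these clusters, and to 366 and 2234 CPM in other cells. Gm42418 was at 2102 CPM in UBD and 9028 CPM in control cycling cells and at 3373 and 13452 CPM in other cells. The part of both was not tested.

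In the Cd3e cluster the sum was 3662 CPM in UBD and 3983 CPM in control cycling cells (ratio 0.919, 0.874 to 0.967) and 937 and 652 CPM in other cells (ratio 1.44, 1.31 to 1.58). In cycling cells 5 of 33 members were at least 1.5-fold higher in UBD cells and 4 lower (14.2% and 12.8% of 6369 genes), and in other cells 5 of 16 were higher and 0 lower (12.2% and 15.2% of 7163 genes). The sign of the cycling log2 ratio turned under 4 of the settings tried, where it lay between 0.13 and 0.26, and with predicted doublets kept 17 members were lower. Hist1h2bc stood at 201 CPM in UBD and 78.7 CPM in control cycling cells and at 82.5 and 49.3 CPM in other cells. Hist1h1c stood at 285 and 175 CPM in cycling and at 274 and 144 CPM in other cells, and Hist1h1e at 175 CPM in UBD and 94.2 CPM in control other cells. Hist1h2bc and Hist1h1c were thus higher in UBD cells of both the C1qa and the Cd3e class. The macrophage list, as given above, was at 3607 CPM in UBD and 173 CPM in control cycling cells, and Gm42418 at 3101 CPM in UBD and 8226 CPM in control cycling cells and at 6268 and 17135 CPM in other cells; their part was not tested.

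Genes that work with the histones were read beside them in the Cdkn2a clusters. Of 11 variant histone genes, which are polyadenylated and also made outside S phase, 5 were at least 1.5-fold higher in cycling than in other UBD cells and 7 in control cells, and 0 lower in either, where 9.2% and 8.43% of all genes compared were higher. H2afz, an H2A variant, was at 1914 CPM in cycling and 918 CPM in other UBD cells and at 1626 and 644 CPM in control cells. H3f3b, an H3 variant, was at 3099 and 2853 CPM in UBD and 3712 and 3299 CPM in control cells, within 1.5-fold. Of 15 chaperone genes 8 were higher in each library, Nasp among them at 140 and 63.7 CPM in UBD and 185 and 88.4 CPM in control cells. Of 15 genes of histone pre-mRNA processing and turnover, 6 were higher in UBD and 2 in control cells, the second count being near the share over all genes. Slbp was at 104 and 66.4 CPM in UBD cells and at 117 and 93.6 CPM in control cells.

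Of the 24 S-list genes 22, and of the 20 G2/M-list genes 20, were at least 1.5-fold higher in cycling cells of each library, in cells that were themselves chosen by 2 cell cycle genes. Between the libraries, in cycling cells of the Cdkn2a clusters, 0 of the 24 S-list genes were at least 1.5-fold lower or higher in UBD than in control cells, and of the 20 G2/M-list genes 1 was lower, where 19.2% of all genes compared were lower and 9.24% higher. Of the variant histone genes 1 of 11 was higher and 0 lower, of the chaperone genes 0 were higher and 1 of 15 lower, and of the processing genes 0 of 15 passed either way. In other cells of these clusters 7 of 20 G2/M-list and 3 of 24 S-list genes were at least 1.5-fold lower in UBD cells and 0 higher, beside 20.3% and 8.8% of all genes, and the median log2 ratio of the G2/M list was -0.32. In cycling cells H2afz was at 1914 CPM in UBD and 1626 CPM in control cells, and Slbp at 104 and 117 CPM.

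The share of cells with histone RNA followed the same order once depth was made equal. With cells thinned to 1000 UMIs and shallower cells left out, a histone UMI was seen in 56.5% of cycling and 43.5% of other UBD cells of the Cdkn2a clusters. In control cells there it was seen in 65.1% and 47.5% (98.6% and 94.6% in UBD and 98.7% and 93.6% in control cells before thinning). Corresponding shares in the C1qa clusters were 58.6% and 37.2% in UBD and 47.6% and 37.3% in control cells. Those of the Cd3e cluster were 79.6% and 57.6% in UBD and 67.9% and 46.8% in control cells. Control neutrophil-marker cells, set beside these, had a histone UMI in 56.8% of cells thinned to 1000 UMIs, so a single histone UMI does not set a class apart. Cells with 5 or more histone UMIs separated the states more: 4.98% of cycling and 0.842% of other UBD cells, and 18.6% and 3.45% of control cells, in the Cdkn2a clusters. Such cells of the Cd3e cluster made up 32.1% of cycling and 1.29% of other UBD cells and 30.4% of cycling control cells, with 0 of 359 other control cells (upper limit of the exact interval 1.02%), against 2.19% of control neutrophil-marker cells.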

How the data were processed

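The authors deposited 1 matrix of raw UMI counts per library, made with Cell Ranger and STAR on mm10 per the submitters' processing notes; per the file headers the matrices came from software version 3.1.0. No versions of STAR and no annotation release are given in the sources used here, and 0 columns lacked a sample.

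From these counts, a cell was kept from 200 genes and 500 UMIs upward if mitochondrial genes gave no more than 20% of its UMIs, and doublets were predicted with Scrublet in scanpy 1.11.5 (expected rate 0.1) and removed. Cells were clustered by the Leiden method (resolution 1, 2000 variable genes, 30 components, 15 neighbours), leaving out 154 histone and cell cycle genes, which gave 23 clusters. Class limits were set after the data were seen. The Cdkn2a class needed Cdkn2a at least 1000 CPM and C1qa below 100 CPM. The C1qa class needed C1qa at least 1000, Cdkn2a below 500 and Cd3e below 100 CPM. The Cd3e class needed Cd3e at least 100 and C1qa below 1000 CPM, and the neutrophil-marker class S100a8 at least 1000 CPM. Each needed a median doublet score below 0.15. A shallow cluster with no marker of its class among its leading genes was left unnamed. Cluster 16 was such a cluster, with Cdkn2a at 1451 CPM and a depth 0.13 times the library median. Class names are rebuilt here and not the authors'. The clusters in none of the classes, with 2356 UBD and 5679 control cells, were not compared.

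Each level is the sum of UMIs of the cells that share class, library and state. Levels carry exact Poisson intervals, ratios exact conditional binomial intervals and shares Clopper-Pearson intervals, all at 95% and covering counting error only; a count of 0 allows up to 3. The interval of a ratio was tested on simulated data, where it covered the set value for 96.0% of 13950 genes of the UBD cells of the Cdkn2a clusters. Members and lists were chosen with earlier results of these data known. Genes named are the 4 with the most UMIs of each type and, for members with 50 or more UMIs, the 3 largest and 3 smallest ratios of each comparison (UBD over control only from 1.5-fold); others are marked where they appear. Stem-loops were read from GENCODE transcripts and promoters from RefSeq (GRCm38.p6). Alternatives covered the cell filter, doublets, classes, the cycling rule, depth, scaling, cell weights, the member minimum, the leading member and resolution; leaving out cluster 7 was chosen after seeing the data.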

Additional observations from a re-analysis of the deposited data

Results flagged for a closer look

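The log2 ratio of cycling to other cells of Hist1h2bc ran in opposite directions in 2 classes. It was -1.18 in UBD and -0.89 in control cells of the Cdkn2a clusters, and 1.28 in UBD and 0.67 in control cells of the Cd3e cluster. Both libraries lay on the same side within each class, and the difference between the classes was not tested. Keeping predicted doublets left 0.13 for the UBD cells of the Cd3e cluster.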

How the results depend on the processing

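No paired analysis was possible because the groups hold 1 library each and share fewer than 2 replicate numbers, and for the same reason no replicate could be left out. Of 3921 recomputed log2 ratios of single members, 3410 stayed within the counting interval of the reported ratio, 507 left it and 4 turned sign from a reported ratio that was at least 1.5-fold with an interval excluding 1. Other sign turns, such as that of Hist1h1c, are counted among the first 2 numbers, and sums and counts of members are given apart below. Settings that only change which members are listed could not move the ratio of a single member. They gave 311 (no member minimum), 298 (member minimum of 1000 UMIs) and 299 (leading member left out) of the 3410. Leaving out cluster 7 could not move ratios of the C1qa and Cd3e classes. Values below are log2 ratios of the histone sum, cycling over other cells, in the order Cdkn2a UBD, Cdkn2a control, C1qa UBD, C1qa control, Cd3e UBD and Cd3e control where all 6 are given, with 0.88, 1.44, 1.82, 1.82, 1.97 and 2.61 as reported. Cycling from 2 UMIs gave 1.07, 1.51, 2.12, 2.47, 2.19 and 3.04, and leaving out the member with the most UMIs gave 0.68, 1.22, 1.62, 1.59, 1.79 and 2.37. Thinning to 2000 UMIs left out shallower cells and called cycling anew from the thinned counts. It gave 1.14 and 1.21 in the Cdkn2a clusters, 1.73 in C1qa control and 2.18 in Cd3e UBD cells. Equal weight per cell gave 0.81, 1.36, 1.55, 1.01 and, for Cd3e control, 2.14. Median ratio scaling gave 0.84 and 1.49 in the Cdkn2a clusters and 1.74 in C1qa UBD cells. Marker gates gave 1.40 in Cdkn2a control, 1.75 in C1qa UBD and 1.92 in C1qa control cells. Doublets kept gave 1.96 in C1qa control, 1.31 in Cd3e UBD and 2.12 in Cd3e control cells. Resolution 0.5 gave 1.35 in Cdkn2a control and resolution 2.0 gave 1.9995 in C1qa control cells, and without cluster 7 Cdkn2a control was 1.34. No setting tried turned the sign of these 6 sums.

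For the sum of cycling cells in UBD over control, reported as -0.67, 0.11 and -0.12 in the Cdkn2a, C1qa and Cd3e classes, cycling from 2 UMIs gave -0.65, -0.21 and -0.24, thinning -1.03, 0.28 and 0.22, and equal weight -1.06, 0.36 and 0.26. Leaving out the member with the most UMIs gave -0.63 and 0.19, and median ratio scaling -0.65 and 0.17, in the Cdkn2a and C1qa classes. In the Cdkn2a class the stricter filter gave -0.56, marker gates -0.65, resolution 0.5 -0.66 and no cluster 7 -0.30. In the C1qa class doublets kept gave -0.051, resolution 0.5 gave 0.015 and resolution 2.0 gave -0.038. In the Cd3e class doublets kept gave -0.39, marker gates 0.13 and resolution 2.0 0.13. The Cdkn2a class stayed below 0 under each setting, while the signs of the C1qa and Cd3e classes were not stable. In other cells, UBD over control, without cluster 7 gave Hist1h3f 0.70, Hist1h4c 0.61 and Hist2h2ac 1.14 in the Cdkn2a clusters, and thinning gave Hist2h2ac 0.084 in the C1qa clusters, each below 0 as reported; the cause was not tested.

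Counts of members past 1.5-fold moved by over 1.5 times as follows. For cycling over other cells, thinning to 2000 UMIs, under which fewer members reach the minimum, left 31 of 50 higher in Cdkn2a UBD, 16 of 37 and 16 of 30 in C1qa UBD and control and 15 of 27 and 12 of 26 in Cd3e UBD and control cells, and 1 of 4 lower in Cdkn2a UBD cells. The member minimum of 1000 UMIs left 31 of 50 and 33 of 53 higher in the Cdkn2a clusters. It takes the 24 members under 1000 UMIs out of the count and changes no ratio of the rest. Without cluster 7, 3 in place of 1 were lower in control cells. For UBD over control in cycling cells, 49 lower in the Cdkn2a class became 29 with the member minimum, again over fewer members, and 19 without cluster 7. In the C1qa class, 6 higher became 10 with the stricter filter and 3 with cycling from 2 UMIs, and 2 lower became 12 with cycling from 2 UMIs, 7 with doublets kept, 6 and 5 at resolutions 0.5 and 2.0, 1 with marker gates and 0 when thinned. In the Cd3e class, doublets kept gave 1 higher and 17 lower in place of 5 and 4, and thinning 3 and 0. In other cells without cluster 7, 28 lower became 7 and 1 higher became 8 in the Cdkn2a class; thinning gave 4 higher and 7 lower in place of 2 and 12 in the C1qa class, and 5 higher in the Cd3e class became 8 with marker gates, 8 with cycling from 2 UMIs and 9 at resolution 2.0. The remaining moves were of counts of 0 or 1, each by 1.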
